A study of Homo sapiens with 6 samples.

Results

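CSF1 and 9 other genes for factors by which tumor cells act on myeloid cells were examined in A549 cells, a human lung adenocarcinoma line, with and without IL17D overexpression. The members were the rows of the deposited count table whose gene name is CSF1, IL34, CSF3, LIF, IL11, MIF, CD47, ANGPT2, GAS6 or PROS1, and all 10 were found among the 58735 genes of the table. One group of 3 libraries came from A549 cells with a lentiviral vector for IL17D, a secreted cytokine of the IL-17 family, and the control group of 3 libraries came from A549 cells with the empty vector. Both groups were grown in the same serum-containing medium. Per the study's methods, the IL17D reading frame was taken from cDNA of the small cell line H82 and the vector carries the human PGK promoter and GFP, so IL17D is a constitutive transgene in these cells. Whether a group's libraries stem from separate transductions or separate cultures is not given in the sources used here, so the p-values measure the spread between these libraries, which may be technical.

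Macrophages live and multiply on signals through the receptor CSF1R, which is engaged by CSF1 (M-CSF) and by IL-34, while G-CSF, the product of CSF3, drives neutrophil production. LIF and IL-11 belong to the IL-6 family, pair their own receptor chains with gp130 and signal largely through STAT3. MIF is a cytokine that acts through CD74 and chemokine receptors, and CD47 is a surface protein that restrains phagocytosis by binding SIRPα on macrophages. ANGPT2 is a ligand of the receptor TIE2. GAS6 is a vitamin K-dependent ligand of the receptors TYRO3, AXL and MERTK. Protein S (PROS1) is a vitamin K-dependent ligand of TYRO3 and MERTK. Tumors use several of these factors to attract macrophages and to shape what they do.

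Counts on genes totalled between 14319398 and 16521021 per library, and 3 counts, taken as the limit that a count of 0 allows, equal 0.182 to 0.210 CPM. CPM is the count scaled to library size. This limit covers counting error only. IL17D had 24, 18 and 34 counts in the control libraries against 31274, 32155 and 26772 in those with the IL17D vector, so the labels and the targeted gene match. Of 6 epithelial markers, 5 had a mean of at least 1 CPM, and the whole list summed to 12737 to 13243 CPM in control libraries and 12371 to 12619 CPM in IL17D-expressing libraries. Nearly all of this sum came from KRT8, KRT18 and KRT7. EPCAM was low, at means of 1.05 CPM in control and 0.976 CPM in IL17D-expressing cells, and so was KRT19, at 0.370 and 0.415 CPM. Of 8 leukocyte markers, PTPRC, AIF1 and CD163 had no count in any library. The whole list summed to 2.18 to 3.18 CPM in control and 3.22 to 4.01 CPM in IL17D-expressing libraries. These ranges did not overlap, which also held for 15.8% of all tested genes taken singly, and their part in the results was not tested. Most of this sum was ITGAM, at 1.78 ± 0.199 CPM in control and 2.50 ± 0.157 CPM in IL17D-expressing cells (SD, n = 3 each; adjusted p = 0.52 in edgeR). CD14 followed, at 0.773 and 0.842 CPM. The 6 fibroblast markers summed to 19.6 to 25.7 CPM over all libraries, nearly all of it from COL1A1, and the 5 endothelial markers to 0.669 to 1.31 CPM, with TEK at 0 throughout. CDH1 was the 1 marker that changed, and it was lower in IL17D-expressing cells, by -0.28 on the log2 scale (SE 0.072, adjusted p = 0.031 in edgeR).

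The level of the members spanned a wide range. Compared per length as TPM (counts divided by gene length and scaled to the same sum in each library), LIF was the most abundant, with a mean of 232 TPM over the 6 libraries and a range from 224 to 244 TPM. CD47 followed at 22.4 TPM, CSF1 and PROS1 at 17.7 TPM each, GAS6 at 8.998 TPM and IL11 at 4.93 TPM. MIF was listed at 1.31 TPM, IL34 at 0.226 TPM, ANGPT2 at 0.131 TPM and CSF3 at 0.0606 TPM. MIF shares most of its exon bases with another gene, as described beside its counts, so its place in the order is that of its counts alone. LIF lay above every other member in all libraries, and the ranges of PROS1 and GAS6 did not overlap over the 6 libraries.

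CSF1 lay apart from PROS1 in IL17D-expressing cells and not in control cells. In control cells CSF1 had 20.1 ± 2.15 TPM and PROS1 17.6 ± 1.47 TPM (SD, n = 3 each), and CSF1 was the higher of the pair in all 3 libraries, although their ranges overlapped. With IL17D, CSF1 had 15.2 ± 1.03 TPM and PROS1 17.8 ± 0.382 TPM (SD, n = 3 each), and CSF1 was the lower in all 3 libraries, without overlap. CD47 was above CSF1 in all 6 libraries, with ranges that overlapped in control cells (21.6 to 22.7 against 18.1 to 22.4 TPM) and not with IL17D (20.8 to 24.3 against 14.1 to 16.0 TPM). GAS6 was above IL11 in all 6 libraries, and their ranges overlapped in neither group. IL34 and ANGPT2, and ANGPT2 and CSF3, overlapped within each group and did not differ beyond their spread.

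**Figure D1:**
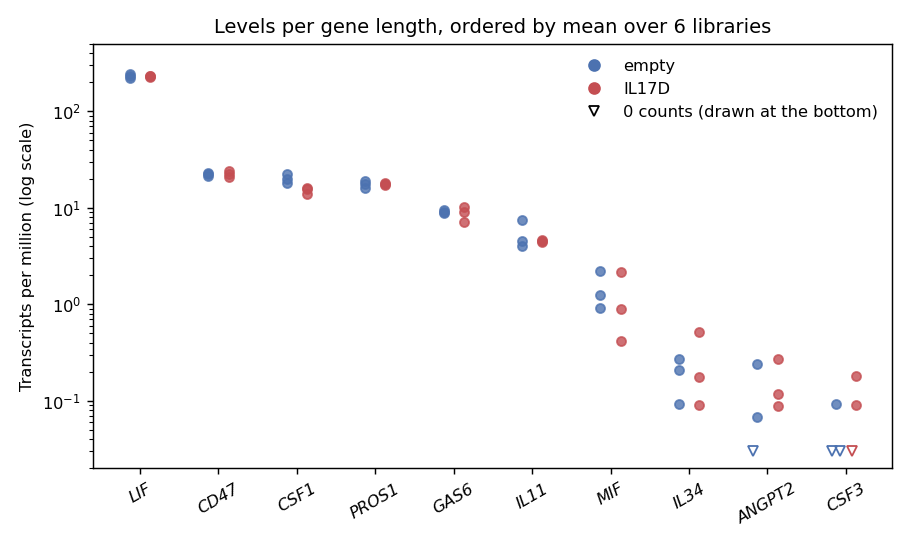
TPM per library (log scale) for the 10 members, ordered by the mean over 6 libraries, with control libraries in blue and IL17D-expressing libraries in red. Open triangles mark libraries with 0 counts, drawn at the bottom of the axis. LIF sits near 232 TPM, and the 3 rightmost genes lie below 1 TPM in every library.

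CSF1 was lower in IL17D-expressing cells, and it was the 1 member whose change passed the test. There were 6 members with enough counts for edgeR's filter on low counts, namely CSF1, LIF, IL11, CD47, GAS6 and PROS1, and MIF, ANGPT2, IL34 and CSF3 had too few. By edgeR's quasi-likelihood test, with p adjusted over all tested genes (Benjamini-Hochberg) and a threshold of 0.05, 1 of the 6 tested members was lower, where 0.908% of all 15754 tested genes were, and 0 of the 6 were higher, where 0.673% of all tested genes were. In either direction 1.58% of all tested genes were called. At an unadjusted p under 0.05, the count was also 1 of 6 members, against 11.6% of all tested genes. The groups were free of overlap for 1 of the 6 members, against 15.8% of all tested genes. The median log2 fold change was -0.022 over the 6 tested members and -0.00044 over all tested genes.

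CSF1 (ENSG00000184371, chromosome 1 of GRCh38, 109910242 to 109930992, plus strand) encodes M-CSF, the ligand that macrophages depend on. It had 482, 526 and 519 counts in control replicates 1, 2 and 3 against 430, 382 and 369 in replicates 1, 2 and 3 with IL17D. Scaled to the libraries, these were 29.7, 36.4 and 32.3 CPM in control cells and 26.1, 23.2 and 25.9 CPM in IL17D-expressing cells. Every control library lay above every IL17D-expressing library, with control replicate 2 the highest and IL17D replicate 2 the lowest of the 6. The means were 32.8 ± 3.38 CPM (SD, n = 3) and 25.1 ± 1.60 CPM (SD, n = 3). The log2 fold change was -0.38 (SE 0.083, 95% interval from -0.55 to -0.22, adjusted p = 0.0070 by the edgeR test), which is 0.766 times the control level, with an interval from 0.682 to 0.861. In bulk RNA, fewer cells that express a gene and less RNA per cell cannot be told apart.

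The call for CSF1 did not hold when replicate 2 of either group was left out. Without control replicate 2 the log2 fold change was -0.30 (adjusted p = 0.11), and without IL17D replicate 2 it was -0.33 (adjusted p = 0.060). The calls over all genes also fell in these sets, from 249 to 174 and 191. All other alternatives kept an adjusted p under 0.05, with log2 fold changes from -0.45 to -0.38. Of the 143 genes that were lower in the same test, 31 had a larger fall than CSF1 and 61 had a smaller p, and the median of these genes was -0.26. No exon base of CSF1 lies under an exon of another gene, and 0.0364% of the 31-base stretches of its transcripts occur elsewhere in the annotated transcripts. Counts per gene do not separate the transcripts of CSF1, of which the annotation holds 9, so the secreted and membrane-anchored forms were not distinguished.

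**Figure D2:**
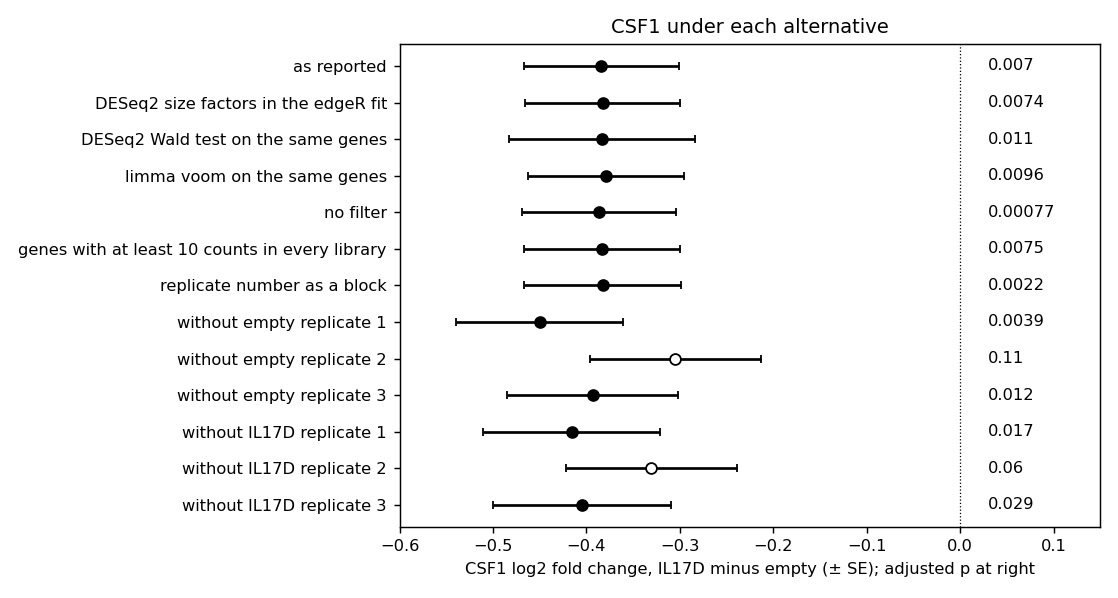
Log2 fold change of CSF1 (IL17D minus empty vector, horizontal axis, ± SE) as reported and under each of 12 alternatives, with the adjusted p at the right and filled points for an adjusted p under 0.05. The points lie between -0.45 and -0.30, and the 2 open points are the fits without replicate 2 of the control group (adjusted p = 0.11) and of the IL17D group (adjusted p = 0.060).

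The profiles nearest to that of CSF1 over the 6 libraries were those of B3GNT10, AC004264.2 and COCH, found among 14355 tested genes with a mean of at least 1 CPM. After each gene was centred on its own mean, the root mean square difference from CSF1 was 0.040, 0.042 and 0.051 on the log2 scale. B3GNT10 had 8.58 CPM in control and 6.57 CPM in IL17D-expressing cells, and its adjusted p was 0.25. AC004264.2 had 3.22 and 2.44 CPM with an adjusted p of 0.56, and COCH had 8.17 and 6.13 CPM with an adjusted p of 0.21. With 6 libraries, such profiles are a description and share the same libraries.

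IL34 (ENSG00000157368, chromosome 16, 70579895 to 70660682, plus strand) encodes the other ligand of CSF1R, and it had few reads. Its counts were 3, 2 and 1 in control replicates and 1, 2 and 5 in IL17D-expressing replicates, so the groups overlapped. The sums of 6 and 8 counts have exact Poisson intervals of 2.20 to 13.1 and 3.45 to 15.8 counts. CSF3 (ENSG00000108342, chromosome 17, 40015361 to 40017813, plus strand), the gene for G-CSF, had 0, 0 and 1 count in the controls against 2, 1 and 0 counts with IL17D. Both groups averaged fewer than 3 counts per library for each of these genes, so no fold is given. From the summed counts, the upper bound of the 95% Poisson interval for CSF3 was 0.119 CPM in control and 0.185 CPM in IL17D-expressing cells, and for IL34 it was 0.279 and 0.333 CPM. The receptor gene CSF1R had 1, 5 and 0 counts in control and 4, 1 and 2 counts with IL17D, and CSF3R had 0 in every control library and 1, 0 and 3 counts in the others. IL34's remaining receptors are PTPRZ1, without a count in any library, and the proteoglycan SDC1, with 406 ± 20.0 CPM in control and 410 ± 17.3 CPM in IL17D-expressing cells (SD, n = 3 each).

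LIF (ENSG00000128342, chromosome 22, 30240447 to 30246851, minus strand) had 292, 278 and 269 CPM in control replicates 1, 2 and 3 and 282, 273 and 279 CPM with IL17D. The groups overlapped, and the control libraries enclosed the others. The log2 fold change was -0.0090 (SE 0.036, adjusted p = 0.96), and its 95% interval from -0.083 to 0.065 corresponds to levels between 0.944 and 1.05 times that of control cells. With 3979 to 4745 counts per library, LIF had the narrowest interval of the 6 tested members. Of LIF's exon bases, 6.73% lie under exons of genes on the opposite strand, AC004264.1 and LIF-AS1, whose counts were 117 to 200 and 7 to 22.

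IL11 (ENSG00000095752, chromosome 19, 55364389 to 55370463, minus strand) had 60, 86 and 52 counts in the controls against 60, 62 and 51 counts with IL17D. These are 3.69, 5.95 and 3.23 CPM in control and 3.65, 3.77 and 3.57 CPM in IL17D-expressing cells. Control replicate 2 stood above the other 5 libraries, which lay close together. The log2 fold change was -0.22 (SE 0.22, 95% interval from -0.65 to 0.22, adjusted p = 0.78), and without control replicate 2 it was 0.082 (adjusted p = 0.95). The interval corresponds to levels of IL11 between 0.636 and 1.17 times that of control cells.

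The receptors and the signalling path of LIF and IL-11 were present without a called change. LIFR, the specific chain for LIF, had 23.7 ± 1.36 CPM in control and 24.5 ± 2.47 CPM in IL17D-expressing cells (SD, n = 3 each), with a log2 fold change of 0.047 (adjusted p = 0.90). IL6ST, which encodes the shared chain gp130, had 204 ± 15.7 and 217 ± 11.2 CPM (SD, n = 3 each), with a log2 fold change of 0.089 and an adjusted p of 0.45. Without control replicate 3 it was 0.15 and passed (adjusted p = 0.046). IL11RA, the specific chain for IL-11, had 8.07 ± 0.772 and 7.94 ± 0.673 CPM (SD, n = 3 each; adjusted p = 0.98). In a list of 12 genes from gp130 to STAT3, all were tested, 0 were higher and 0 lower at an adjusted p under 0.05, and the median log2 fold change was 0.028. At that threshold, 1.58% of all tested genes were called in either direction. By the unadjusted p, 1 of the 12 was under 0.05, against 11.6% of all tested genes. It was PIAS3, an inhibitor of STAT3, with a log2 fold change of -0.15 (adjusted p = 0.37). SOCS3, a feedback inhibitor transcribed on STAT3 activity, had 30.8 ± 1.78 CPM in control and 33.2 ± 1.53 CPM in IL17D-expressing cells (SD, n = 3 each; log2 fold change 0.11, adjusted p = 0.66).

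**Figure D3:**
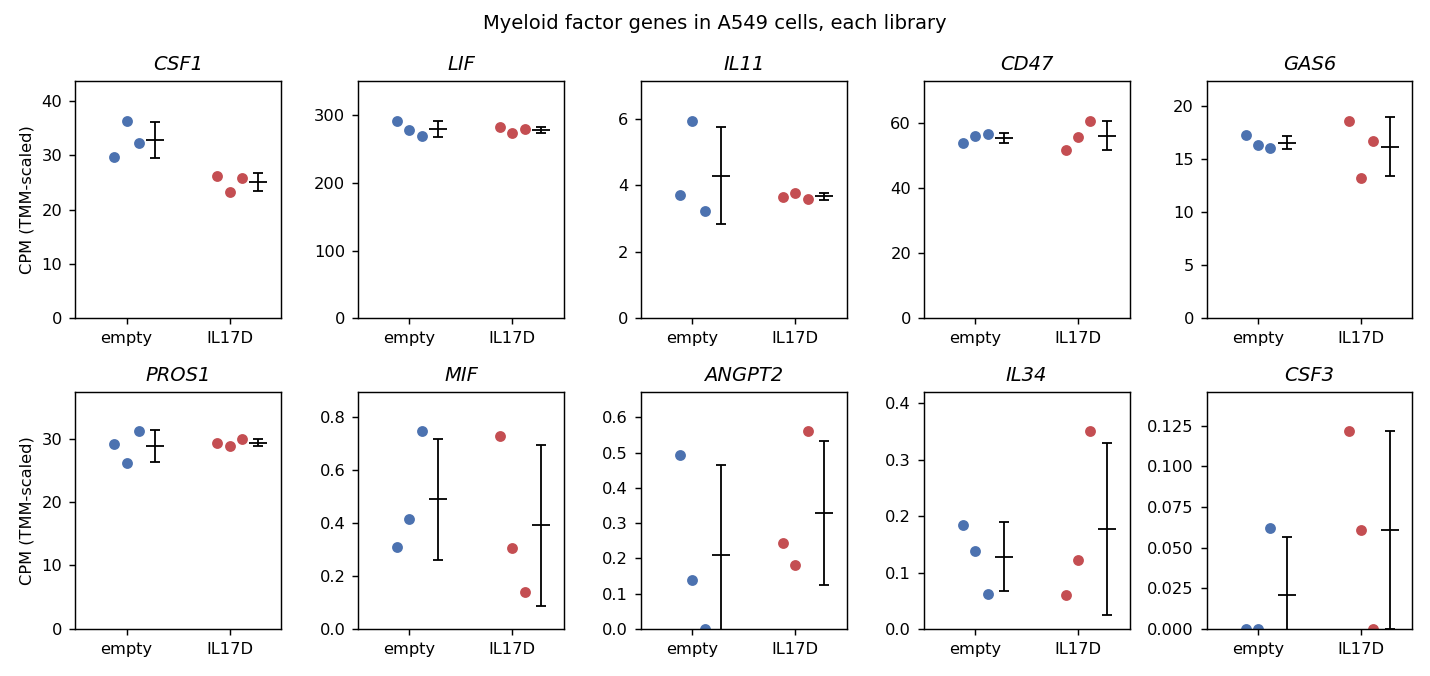
CPM after TMM scaling (vertical axes from 0, a scale for each gene) in the 3 control libraries (blue) and the 3 IL17D-expressing libraries (red) for each member, with the mean and SD beside the points. The groups are apart for CSF1 (29.7 to 36.4 against 23.2 to 26.1 CPM) and overlap for the other 9 genes.

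MIF (ENSG00000240972, chromosome 22, 23894004 to 23895227, plus strand) was counted at a level near the limit of detection. It had 5, 6 and 12 counts in the controls against 12, 5 and 2 counts with IL17D. The groups overlapped, and each had a library with 12 counts, the highest value. The summed counts of 23 and 19 give a ratio of 0.818 (IL17D to control, 95% exact interval 0.421 to 1.57, counting error only), and the exact two-sided permutation test over libraries gave p = 0.5, where 3 libraries against 3 cannot go below 0.1. Of MIF's exon bases, 61.9% lie under exons of other genes, all of them under exons of the antisense gene MIF-AS1, and 59.3% of its 31-base stretches occur in transcripts of other genes. MIF-AS1 had 17, 3 and 7 counts in control and 2, 15 and 10 counts with IL17D, and AP000350.4, which covers 32.2% of MIF's exon bases on the same strand, had 0 counts in every library.

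The coding part of MIF is shown because all of its 345 bases lie under MIF-AS1. The 3 coding exons stand at chr22:23894475-23894582, chr22:23894772-23894944 and chr22:23895040-23895103 of GRCh38, plus strand, without the stop codon, and the capitals mark bases under exons of MIF-AS1 on the opposite strand, here every base.
MIF coding exon 1: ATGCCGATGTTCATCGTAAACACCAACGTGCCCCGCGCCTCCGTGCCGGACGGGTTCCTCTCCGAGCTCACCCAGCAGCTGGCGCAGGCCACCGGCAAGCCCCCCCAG
MIF coding exon 2: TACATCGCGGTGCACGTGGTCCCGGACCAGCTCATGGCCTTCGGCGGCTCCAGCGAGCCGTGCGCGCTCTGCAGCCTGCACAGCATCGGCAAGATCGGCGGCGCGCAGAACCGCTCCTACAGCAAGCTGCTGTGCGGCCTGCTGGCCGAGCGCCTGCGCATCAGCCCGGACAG
MIF coding exon 3: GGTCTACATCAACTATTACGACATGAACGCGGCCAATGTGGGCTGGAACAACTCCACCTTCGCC

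The strand setting and the treatment of reads on more than 1 gene are not given in the sources used here, so the RNA level of MIF cannot be read from its counts. The part of this overlap in the low count of MIF was not tested. DDT, the gene for the MIF homolog D-dopachrome tautomerase, which has 37.8% of its exon bases under other genes, had 1 to 5 counts per library. Of the MIF receptors, CD74 had 0.756 ± 0.186 CPM in control and 0.555 ± 0.113 CPM in IL17D-expressing cells (SD, n = 3 each; adjusted p = 0.80). CXCR4 had 9, 7 and 14 counts in control and 22, 24 and 11 counts with IL17D, with a log2 fold change of 0.90 (SE 0.42) that did not pass (adjusted p = 0.40), and CXCR2 had at most 1 count in a library.

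**Figure D4:**
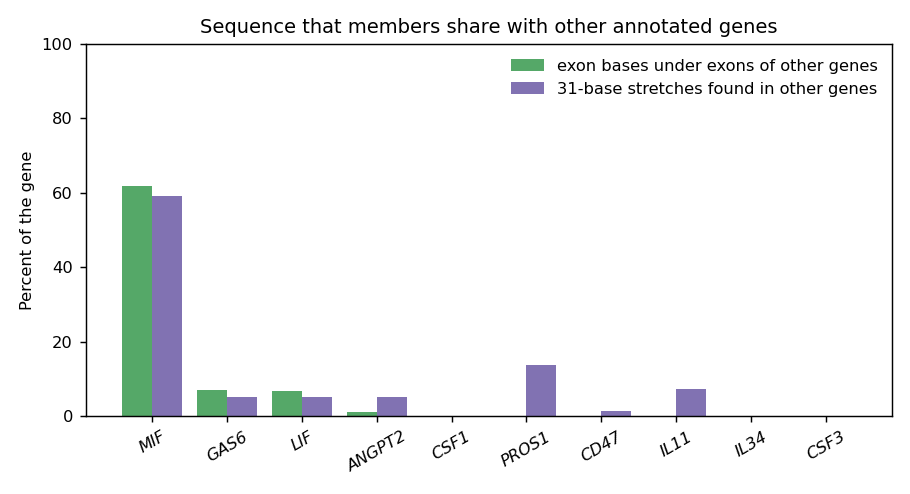
Percent (vertical axis) of each member's exon bases that lie under exons of other annotated genes (green) and of its 31-base transcript stretches that occur in other genes (purple). MIF stands at 61.9% and 59.3%, and every other member is under 14% in both.

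CD47 (ENSG00000196776, chromosome 3, 108043094 to 108091862, minus strand) had 53.7, 55.9 and 56.5 CPM in the controls against 51.8, 55.6 and 60.7 CPM with IL17D. The IL17D-expressing libraries enclosed the control libraries, and the log2 fold change was 0.015 (SE 0.061, 95% interval from -0.11 to 0.14, adjusted p = 0.96). Its inhibitory partner SIRPA, which macrophages carry but which A549 cells also transcribed, had 107 ± 1.82 and 101 ± 5.95 CPM (SD, n = 3 each; adjusted p = 0.57). THBS1, the gene for thrombospondin-1, another ligand of CD47, had 67.8 ± 3.85 and 68.2 ± 1.71 CPM (SD, n = 3 each), and QPCTL, the enzyme that modifies CD47 for binding SIRPα, had 21.7 ± 2.05 and 21.9 ± 1.97 CPM (SD, n = 3 each). Their adjusted p-values were 0.98 and 0.99.

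Among 4 genes for other signals that phagocytes read, 3 were tested and 1 changed, where 1.58% of all tested genes were called in either direction. CD24, which restrains phagocytosis through Siglec-10, had 225, 229 and 219 CPM in the controls against 200, 191 and 195 CPM with IL17D, so that every control library was higher. CD24 fell by 0.20 on the log2 scale (SE 0.038, adjusted p = 0.0016 from edgeR's test), and it kept an adjusted p under 0.05 in all 12 alternatives. B2M, the light chain of MHC class I, had 164 ± 3.83 CPM in control and 151 ± 3.04 CPM in IL17D-expressing cells (SD, n = 3 each), and did not pass (log2 fold change -0.12, adjusted p = 0.15). For CD24 and B2M the groups did not overlap, which held for 15.8% of all tested genes. CALR, the gene of calreticulin, which promotes phagocytosis when exposed on the surface, had an adjusted p of 0.56, and CD274, the gene of PD-L1, had 0 to 7 counts per library and was not tested.

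GAS6 encodes a ligand of the TAM receptors (TYRO3, AXL and MERTK), and PROS1 encodes a related ligand of TYRO3 and MERTK. By the TAM receptors, macrophages recognise dying cells and dampen inflammation. GAS6 (ENSG00000183087, chromosome 13, 113820549 to 113864067, minus strand) had 17.2, 16.3 and 16.0 CPM in the controls against 18.6, 13.2 and 16.7 CPM with IL17D. The IL17D-expressing libraries were the highest and the lowest of the 6, and the log2 fold change was -0.034 (SE 0.11, 95% interval from -0.26 to 0.19, adjusted p = 0.95). Of its exon bases, 7.01% lie under exons of the antisense gene GAS6-AS1, which had 19.7 ± 1.44 CPM in control and 17.3 ± 0.823 CPM in IL17D-expressing cells (SD, n = 3 each; log2 fold change -0.19, adjusted p = 0.46). For the summed counts of both genes the log2 fold change was -0.12 (SE 0.076, adjusted p = 0.62).

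PROS1 (ENSG00000184500, chromosome 3, 93873033 to 93980003, minus strand) had 29.2, 26.1 and 31.2 CPM in the controls against 29.4, 28.8 and 29.9 CPM with IL17D. The control libraries enclosed the IL17D-expressing libraries, and the log2 fold change was 0.024 (SE 0.079, 95% interval from -0.14 to 0.18, adjusted p = 0.95). The pseudogene PROS2P holds 12.6% of the 31-base stretches of PROS1 and had no count in any library. Of the TAM receptors, AXL, which binds GAS6, was measured at 192 ± 6.53 CPM in control and 190 ± 3.30 CPM in IL17D-expressing cells (SD, n = 3 each). TYRO3 had 22.3 ± 2.84 and 22.01 ± 0.949 CPM, and MERTK had 8.09 ± 0.554 and 8.12 ± 0.254 CPM (SD, n = 3 each). All 3 receptors overlapped between the groups, with adjusted p-values of 0.94, 0.97 and 0.99. The log2 fold change of GGCX, the carboxylase that activates both ligands, was -0.067 (adjusted p = 0.77), and that of VKORC1, which recycles vitamin K for it, was -0.22 (SE 0.14, adjusted p = 0.59).

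ANGPT2 (ENSG00000091879, chromosome 8, 6499651 to 6563409, minus strand) encodes a ligand that destabilises vessels and binds TIE2-bearing monocytes. It had 8, 2 and 0 counts in the controls against 4, 3 and 8 counts with IL17D, so the groups overlapped. The summed counts of 10 and 15 give a ratio of 1.49 (IL17D to control, 95% exact interval 0.624 to 3.70, counting error only), and the exact two-sided permutation test gave p = 0.5. TEK, the gene of TIE2, had no count in any library, and TIE1 had 1 or 2 counts in each. The related ligand ANGPT1 had 6, 13 and 10 counts in control and 17, 12 and 11 counts with IL17D (log2 fold change 0.44, SE 0.46, adjusted p = 0.79).

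**Figure D5:**
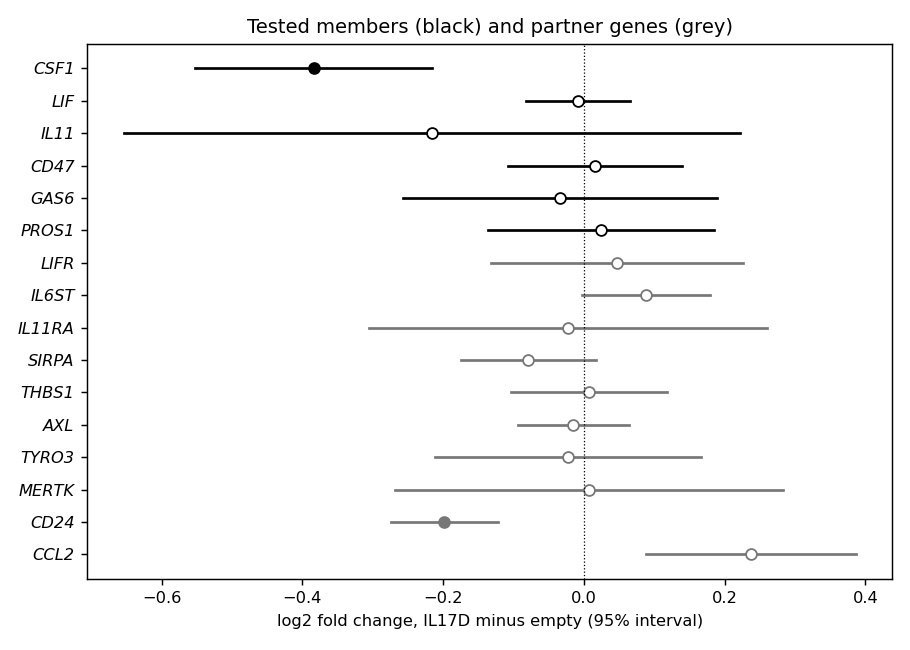
Log2 fold change (IL17D minus empty vector) with its 95% interval for the 6 tested members (black) and for 10 partner or related genes (grey), with filled points for an adjusted p under 0.05. CSF1 (-0.38) and CD24 (-0.20) are filled, and the intervals of LIF, IL11, CD47, GAS6, PROS1, LIFR, IL6ST, IL11RA, SIRPA, THBS1, AXL, TYRO3 and MERTK span 0, while that of CCL2 lies above 0 with an open point.

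By lists, the receptors and binding partners of the members numbered 18 genes, of which 11 were tested, 0 were higher and 0 lower at an adjusted p under 0.05, and the median log2 fold change was 0.0069. In either direction, 1.58% of all tested genes were called at that threshold. Of the 11 tested receptors and partners, 1 had an unadjusted p under 0.05, CXCR4, against 11.6% of all tested genes. All 5 genes of ligand processing were tested, including ADAM17, the protease that sheds membrane-bound CSF1 (log2 fold change -0.031, adjusted p = 0.88), and 0 changed, with a median of -0.031 and no unadjusted p under 0.05. Of 14 related ligands, 7 were tested and 0 changed, with no unadjusted p under 0.05. Their median was 0.15, against -0.00044 over all tested genes. The gene at this median had 4 to 14 counts per library (SE 0.52), and 4 of the 7 were above 0 and 3 below. Limma's test also made no call in these 3 lists. DESeq2 made none among the genes to which it gave an adjusted p, which left out CD74 and CXCR4 among the 11 receptors and partners and 5 of the 7 related ligands.

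A panel of 7 genes for recruiting and polarizing macrophages, taken from the study's other assays, includes CSF1. Of its 7 genes 2 were tested, CSF1, which was lower, and CCL2, with log2 fold changes of -0.38 and 0.24. Their median of -0.073 lies between 2 values of opposite sign and describes neither gene. The genes CCL3, CCL4 and IL6 had 0 in all 6 libraries, and CSF2 had 1 count in control replicate 3. CCL5 had 10, 6 and 7 counts in control and 10, 10 and 7 counts with IL17D. CCL2, a chemokine that attracts monocytes, had 31.8, 28.8 and 29.4 CPM in the controls against 36.2, 33.8 and 36.2 CPM with IL17D, without overlap, as for 15.8% of all tested genes. Its log2 fold change was 0.24 (SE 0.073, unadjusted p = 0.0027 in edgeR's fit across all genes), and it did not pass after adjustment (adjusted p = 0.11).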

How the data were processed

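RNA-seq of 6 libraries was analysed, 3 of A549 cells with an IL17D vector and 3 with the empty vector. The authors deposited counts per gene, not normalized, and per the labels' processing notes Bowtie2 and hg38 were used. The counting tool, its strand setting and the annotation are not given in the sources used here. All 58735 genes have the coordinates of GENCODE release 29 (GRCh38), which was used for exons and transcripts, and the table's gene lengths equal the summed exon lengths for all 10 members. Counts of libraries within a group differed by more than sampling noise (chi-square per degree of freedom 2.19 to 3.36).

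Genes were kept by edgeR's filterByExpr (minimum count 10), scaled by TMM and compared with the quasi-likelihood test without covariates (R 4.3.3, edgeR 4.0.16), two-sided, with Benjamini-Hochberg adjustment over 15754 genes. Adjusted p-values are from this test unless another is named. CPM follow TMM, and SE and 95% intervals come from the same fit. The alternatives used DESeq2 1.42.0, limma 3.58.1, other filters, a replicate block, summed counts and each library left out. Members below the filter were given as counts with exact Poisson intervals, and ratios with exact binomial ones, with scipy 1.17.1 in Python 3.11.15. The fits were first tested on simulated data, with changes placed only in genes with many counts. There edgeR called 39.7% of changes of 0.25 on the log2 scale, 84.8% of those of 0.5 and 98.5% of those of 1. Small changes can thus go uncalled.

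Members and lists were chosen with earlier results of these data known. The genes named are all members, IL17D, called genes of the lists, main receptors, genes that overlap a member and the 3 profiles nearest to CSF1. CDH1, CXCR2, CXCR4, CSF3R, PTPRZ1, SDC1, PIAS3, SOCS3, THBS1, QPCTL, B2M, CALR, CD274, GGCX, VKORC1, ADAM17, DDT, TIE1, ANGPT1 and the macrophage panel were named outside that rule, after their values were seen. This also holds for the cell type markers named beside the sums of their lists.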

Additional observations from a re-analysis of the deposited data

How the results depend on the processing

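CSF1 kept its direction in all 12 alternatives, with adjusted p-values from 0.00077 to 0.11, and the log2 fold change ran from -0.45 to -0.30 when 1 library was left out. The number of members called lower was 1, and 0 without empty replicate 2 and without IL17D replicate 2, where the cause was not tested beyond the loss of 1 sample, and no member was called higher in any alternative. With the replicate number as a block, CSF1's log2 fold change was -0.38 (adjusted p = 0.0022), 1 member was called lower, and the calls over all genes went from 249 to 272. No pairing by number was seen in the counts. The deviations of same-numbered libraries correlated at -0.015 to 0.010, and 0 of the 6 libraries correlated best with its own number. As deviations from means of 3 libraries, these values cannot tell whether same-numbered libraries were prepared together. With 1 library left out, the log2 fold changes ran from -0.036 to 0.025 for LIF (above 0 without empty replicate 1, and at 0.0042 without IL17D replicate 2), from -0.042 to 0.070 for CD47 (below 0 without IL17D replicate 3, and at -0.0049 without empty replicate 1), from -0.38 to 0.082 for IL11 and from -0.040 to 0.084 for PROS1 (both of the other sign without empty replicate 2), and from -0.15 to 0.096 for GAS6 (above 0 without IL17D replicate 2). None of these passed the test. MIF, which edgeR fitted in 4 of the 6 such sets, ran from -0.54 to 0.074 (above 0 without IL17D replicate 3), against a log2 ratio of summed counts of -0.29. The calls over all genes fell from 249 to 155 without IL17D replicate 1 and to 145 without IL17D replicate 3. Levels without TMM moved by less than 1 SD for all 10 members in both groups, and no second source of gene length differed from the table's. At these depths MIF, ANGPT2, IL34 and CSF3 had 0 to 12 counts per library and did not pass edgeR's filter with all 6 libraries.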
